A study of Mus musculus with 8 samples.

Results

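Expression of 10 nuclear genes of the mitochondrial stress response was compared between WT and DKO S0 cells. The genes were taken by name: the matrix chaperones Hspd1, Hspe1 and Hspa9, the proteases Lonp1, Clpp and Yme1l1, the stress relay Oma1, Dele1 and Eif2ak1, and the secreted factor Gdf15. All 10 were found among the 52636 gene identifiers of the count table, and all 10 passed the filter on low counts, which left 17378 genes for testing. In DKO cells, transcripts of the matrix proteases Lonp1 and Clpp rose, while those of Oma1 and Eif2ak1, which encode the first and last steps of the relay, fell. None of the 4 was called by edgeR with sex as a covariate (2 of the 10 genes had an unadjusted p under 0.05), and the log2 fold change of Clpp went from 0.38 to 0.08 with a correction for exon length and GC content. The other 6 genes did not pass an adjusted p of 0.05.

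Proteins imported into mitochondria are folded in the matrix by HSPA9 and by the HSPD1-HSPE1 chaperonin, and damaged proteins are degraded by LONP1 and by the CLPP peptidase with its unfoldase CLPX. In the inner membrane, the proteases YME1L1 and OMA1 cut the fusion protein OPA1. When mitochondria are stressed, OMA1 also cuts DELE1, which then reaches the cytosol and binds the kinase HRI, the product of Eif2ak1. HRI phosphorylates eIF2α, which favours translation of ATF4, and GDF15 is secreted by stressed cells. In erythroid cells HRI is best known as the kinase that matches globin synthesis to the heme supply. Much of this relay works by cleavage and phosphorylation, which RNAseq does not measure.

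S0 cells are the fetal liver cells that FACS leaves negative for lineage markers, for CD71 (the transferrin receptor) and for Ter119, and the labels call them erythroid precursors. They were taken at E12.5 from 4 WT and 4 DKO samples on a C57BL/6J background. DKO embryos lack both Vps13a, through the tm1d allele made by breeding with FLP and β-actin-Cre mice, and Vps13c, through the Vps13c-/- allele, and came from parents that were Vps13a+/- and Vps13c-/-. That cross gives no WT embryos, so the WT embryos were of other parents. All cells of these embryos carry the deletions, and single knockout S0 cells were not part of the comparison. Each library is taken as 1 embryo, which the labels do not state, so that the p-values measure the spread between these libraries. Total counts were 42114489 to 50886469 in WT and 36981439 to 42587815 in DKO, and spread between libraries, not counting error, set the precision of genes at these levels.

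The targeted genes, the sex of the embryos and the cells present in the sort were examined first. The level of Vps13a was 1943 ± 130 normalized counts in WT against 794 ± 194 in DKO (SD over 4 libraries each, edgeR log2 fold change -1.29, adjusted p = 0.00247). That of Vps13c was 583 ± 74.9 against 816 ± 279 (SD over 4 libraries each, edgeR adjusted p = 0.182), so its count over the whole gene does not check the label. All 4 WT libraries and DKO 3 carried Y-linked transcripts, while DKO 1, DKO 2 and DKO 4 carried Xist instead, so that sex and genotype were largely confounded. With sex as a covariate, edgeR called 6.3% of the genes tested in either direction. In that fit the comparison of genotypes within one sex rests on DKO 3 alone.

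Markers of other cell types differed between the genotypes (see the plot of marker lists). Of all genes tested, edgeR called 10.7% higher and 10.8% lower in DKO, beside which a count of 1 or 2 markers in a list says little about that list. All 10 erythroid markers were detected in every library, with summed levels of 30089 to 34986 normalized counts in WT and 27918 to 42960 in DKO, and 2 of the 10 rose, among them Epor, the erythropoietin receptor. Mesenchyme markers summed to 2239 to 6317 in WT and 14466 to 51475 in DKO, and 9 of 10 rose. Neural markers summed to 583 to 1304 in WT and 2328 to 10048 in DKO, and 3 of the 7 tested rose, with Stmn2 and Elavl3 at 0 in libraries of both genotypes and Sox10 and Nefl in WT libraries. Neutrophil markers summed to 103775 to 134830 in WT and 5400 to 45928 in DKO, with 4 of the 9 tested lower, S100a9 and Ngp at 0 in libraries of both genotypes and Ltf in DKO libraries. Most of the WT sum was Mpo (mean 108147 in WT, 22998 in DKO). The estimates of 2 of the 9 tested, S100a8 and S100a9, were higher in DKO but not called. Macrophage markers summed to 2426 to 3308 in WT and 666 to 1590 in DKO, with 1 of the 9 tested lower and C1qa and Timd4 at 0 in libraries of both genotypes and Adgre1, C1qb, C1qc, Cd5l and Marco in DKO libraries. Most of the WT sum was Csf1r (mean 2196 in WT, 711 in DKO), which was not called (edgeR adjusted p = 0.0961). The estimates of 2 of the 9 tested, C1qa and C1qc, were higher in DKO but not called. Hepatoblast markers summed to 697874 to 947049 in WT and 207602 to 802599 in DKO, and edgeR called 0 of 10, although 4 were lower at an unadjusted p under 0.05 and DESeq2 called the same number. Megakaryocyte markers (63635 to 74385 in WT, 45483 to 132551 in DKO) had 1 gene lower, and endothelium markers (14202 to 15267 in WT, 9210 to 15601 in DKO) had 2 lower, with Stab2 and Emcn at 0 in DKO libraries. The part of these cells in the levels of the mitochondrial genes was not tested, and in bulk RNA fewer cells of a type and less RNA per cell cannot be told apart.

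**Figure D1:**
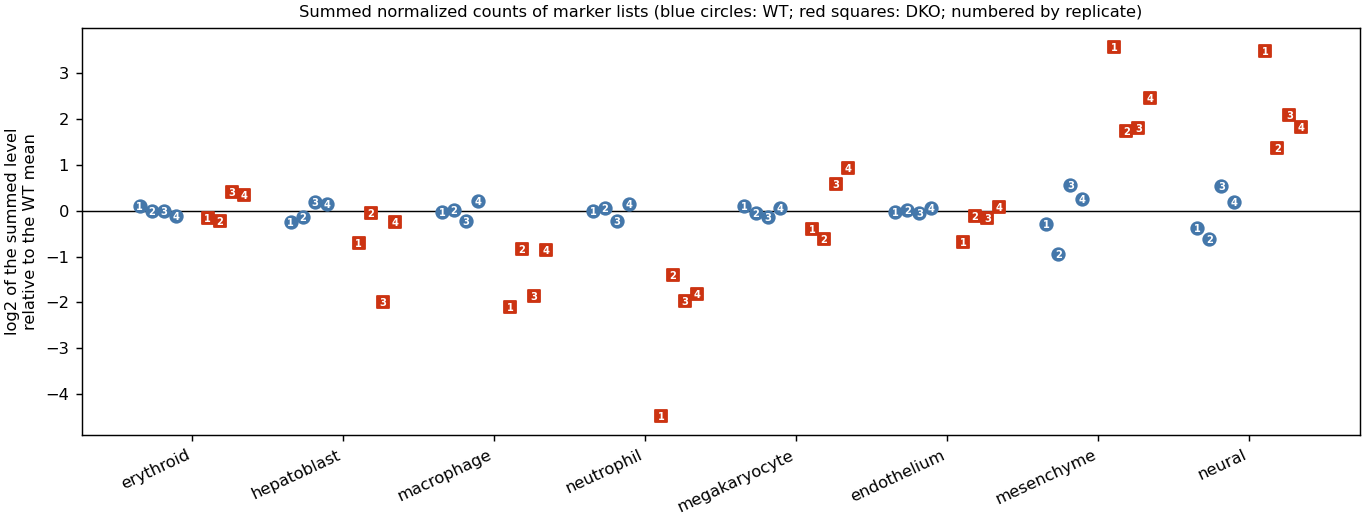
Summed normalized counts of 8 lists of cell type markers, as log2 relative to the mean of the WT libraries, with each library numbered by its replicate. Mesenchyme and neural sums of every DKO library lie above every WT library, with DKO 1 highest, and neutrophil and macrophage sums lie below. In WT, most of the neutrophil sum is Mpo and most of the macrophage sum is Csf1r.

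Among the 10 genes, 2 were called higher and 2 lower in DKO by edgeR's quasi-likelihood test (Benjamini-Hochberg adjusted p under 0.05 over all genes tested). Of all genes tested, 21.6% were called, 10.7% higher and 10.8% lower. The 10 genes were chosen by name, and whether 4 of 10 differs from that share was not tested. By edgeR, 0 of the 10 passed both the adjusted p and a log2 fold change beyond 1, as 8.63% of all genes did. By DESeq2, 1 of the 10 (Gdf15) passed both. An unadjusted p under 0.05 was found by edgeR for 8 of the 10. The share of all genes at that unadjusted p was not counted, here or with sex as a covariate. Without a covariate it is at least the 21.6% called after adjustment. DESeq2, which called 26.6% of the genes it tested, called 4 of the 10 higher, the additional genes being Hspe1 and Gdf15. The libraries did not overlap between genotypes for Lonp1 (higher) and for Hspd1, Oma1 and Eif2ak1 (lower). Over all genes tested, 28.1% did not overlap, 13.5% higher and 14.6% lower. The median log2 fold change of the 10 genes was -0.06, beside 0.03 for all genes tested. With sex as a covariate edgeR called 0 of the 10, and 2 had an unadjusted p under 0.05.

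**Figure D2:**
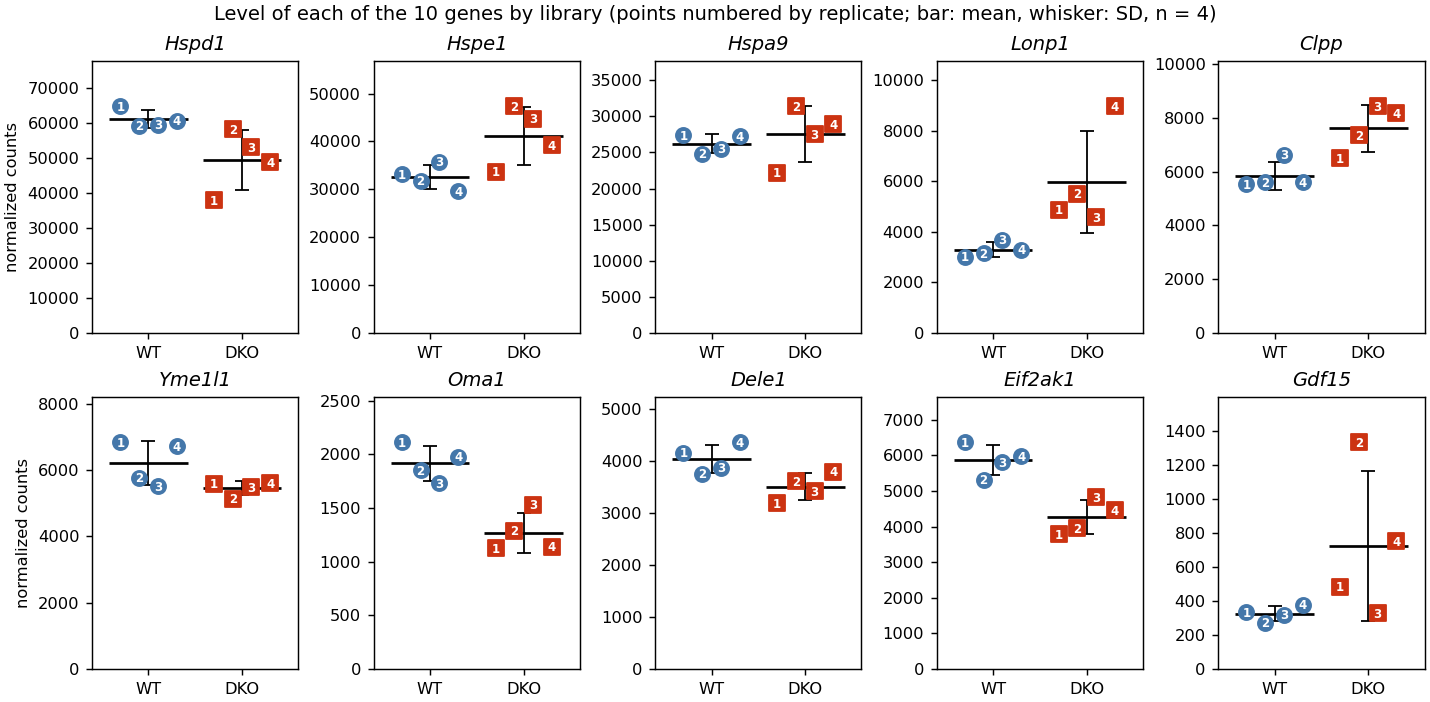
Normalized counts of each of the 10 genes (vertical axes, all from 0) in the WT and DKO libraries, numbered by replicate, with the mean and SD of each group (n = 4). Oma1 and Eif2ak1 separate the genotypes downward, Lonp1 upward, and Gdf15 varies from 328.4 to 1331 among DKO libraries.

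**Figure D3:**
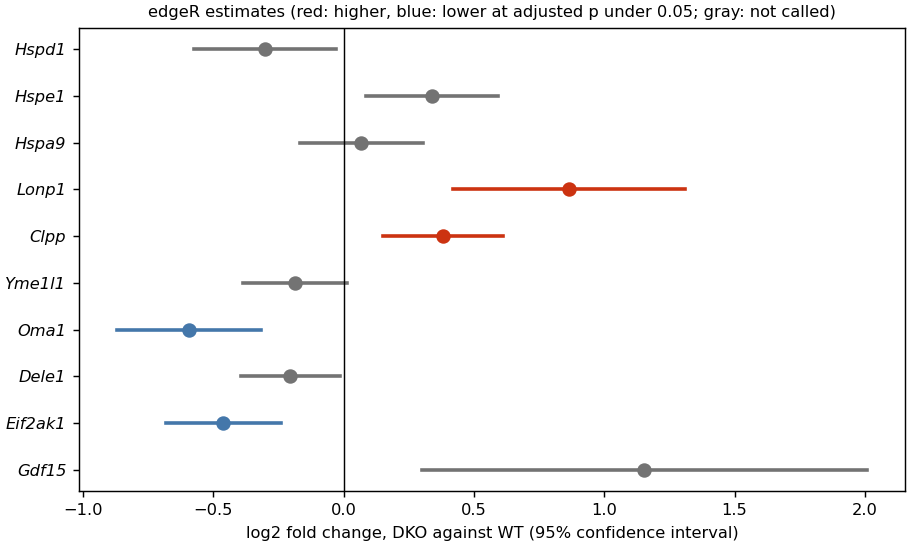
The log2 fold change of DKO against WT estimated by edgeR (points) with its 95% confidence interval (lines) for the 10 genes. The intervals of Hspa9 (-0.17 to 0.31) and Yme1l1 (-0.39 to 0.01) span 0, and those of the other 8 genes, 4 of them not called after adjustment, lie to one side of it.

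The chaperonin genes Hspd1 and Hspe1 were the most abundant of the 10, and the ratio between them differed between the genotypes. HSPD1 forms the barrel in which matrix proteins fold and HSPE1 its lid. Hspd1 (ENSMUSG00000025980.14, chr1:55077835-55088243 of GRCm38, minus strand) had 64654, 59100, 59371 and 60534 normalized counts in WT 1 to 4, and 37869, 58073, 53042 and 48752 in DKO 1 to 4. Normalized counts are the deposited counts after scaling to a common effective library size. The DKO libraries all lay below the WT libraries, although DKO 2 was close to WT 2. The means were 60915 ± 2569 and 49434 ± 8600 (SD, n = 4 each), and the log2 fold change of -0.30 ± 0.12 (SE) did not pass the edgeR test (adjusted p = 0.106). An exact two-sided permutation test gave p = 0.0286, the smallest that 4 against 4 libraries allow. Without DKO 1 the log2 fold change was -0.19 (edgeR adjusted p = 0.111), and the gene was called only with library sizes without TMM (-0.31, edgeR adjusted p = 0.0499).

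Hspe1 (ENSMUSG00000073676.4, chr1:55088132-55091307, plus strand) had 33197, 31833, 35777 and 29640 normalized counts in WT 1 to 4, and 33676, 47336, 44704 and 39184 in DKO 1 to 4. All 4 DKO libraries were above the WT mean, and only DKO 1 overlapped the WT range. The means were 32612 ± 2569 and 41225 ± 6072 (SD, n = 4 each), with a log2 fold change of 0.34 ± 0.11 (SE, edgeR adjusted p = 0.0610, exact permutation p = 0.0571). The gene was called with DESeq2 (adjusted p = 0.0416) and when DKO 1 was left out (edgeR adjusted p = 0.0121).

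Within each library, the ratio of Hspd1 to Hspe1 separated the genotypes. This ratio does not depend on the scaling between libraries. It was 1.95, 1.86, 1.66 and 2.04 in WT 1 to 4, and 1.12, 1.23, 1.19 and 1.24 in DKO 1 to 4. The ratio was thus nearly the same in the 4 DKO libraries, including DKO 1, which had the lowest levels of both genes among the DKO libraries. On the log2 scale the mean fell from 0.90 ± 0.13 to 0.26 ± 0.065 (SD, n = 4 each), a difference of -0.65 (exact permutation p = 0.0286, 0.0429 after Benjamini-Hochberg adjustment over 3 ratios). Against the mean log2 level of the 8 subunits of CCT, the cytosolic chaperonin, Hspd1 differed by -0.25 and Hspe1 by 0.40 between DKO and WT (exact permutation p = 0.0286 each, a comparison chosen after the values were seen). In neither of these did WT and DKO libraries overlap, Hspd1 being lower and Hspe1 higher relative to CCT in DKO. The differences from CCT are given without a correction for exon length. Hspe1 has 1474 bases of exons and the CCT genes 2557 to 6778. With a correction for exon length and GC content the Hspd1 to Hspe1 difference was -0.48 (exact permutation p = 0.0286).

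Hspd1 and Hspe1 lie head to head and are transcribed from a shared bidirectional promoter, so its sequence is shown. In the RefSeq annotation of GRCm38.p6 the start of Hspe1 lies at 55088148 of chromosome 1, and Hspd1 has starts at 55087932 and 55088243, so that the pair diverges from the former by 216 bases and overlaps from the latter by 95 bases. The window below runs from 250 bases before to 50 bases after the Hspe1 start (chr1:55087898-55088197, plus strand). Capitals mark a match to GAANNTTC, the inverted pair of heat shock element units, whose first base is at position -84 from the start.
Hspe1: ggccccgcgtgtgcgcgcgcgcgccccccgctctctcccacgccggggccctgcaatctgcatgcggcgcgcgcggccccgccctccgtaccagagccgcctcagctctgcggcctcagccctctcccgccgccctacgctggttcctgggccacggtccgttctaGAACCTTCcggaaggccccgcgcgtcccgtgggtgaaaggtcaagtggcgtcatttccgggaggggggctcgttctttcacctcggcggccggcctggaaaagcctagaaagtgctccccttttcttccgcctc

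Matches to GAANNTTC on either strand were present in 7.86% of the 32851 RefSeq promoter windows of this length, and in 3 of the 10 windows found for 8 of the genes. Those 3 windows belong to Hspe1, to the Hspd1 start at 55087932, which holds the same site read from the other strand, and to Eif2ak1. The Eif2ak1 window (chr5:143817542-143817841, plus strand) is shown because it is the only other match, at position -31 from the start.
Eif2ak1: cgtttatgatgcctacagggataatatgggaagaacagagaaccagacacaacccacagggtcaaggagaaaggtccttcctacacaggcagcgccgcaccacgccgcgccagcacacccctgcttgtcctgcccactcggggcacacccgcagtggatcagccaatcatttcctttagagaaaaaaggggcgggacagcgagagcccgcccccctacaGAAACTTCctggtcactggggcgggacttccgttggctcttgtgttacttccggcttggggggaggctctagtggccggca

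The composite ATF4 and CHOP element TGATGNAA (3.97% of all windows), the NRF1 element (0.971%) and the GATA motif AGATAA (11.2%) had no match in the windows of these genes. CACGTG, the E-box (7.15%), was found in windows of Gdf15, Hspd1 and Lonp1. TGACG, part of the cAMP response element (20.8%), was found in those of Hspd1, Hspe1, Lonp1, Oma1 and Yme1l1. The E-box of Lonp1 lay at position -36 and its matches to TGACG at -42, -7 and 12, counted from the transcript start at 56626903. Both strands were searched, and the Lonp1 E-box overlaps none of its own TGACG matches. These are matches of letters, with no measurement of binding.

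Hspa9, which encodes the matrix HSP70 that pulls proteins through the import channel, did not differ detectably. It lies on chromosome 18 from 34937414 to 34954357, minus strand (ENSMUSG00000024359.8). Normalized counts were 27394, 24792, 25526 and 27220 in WT 1 to 4, and 22192, 31386, 27499 and 28927 in DKO 1 to 4. DKO 1 was below and the other DKO libraries above every WT library, so the DKO libraries enclosed the WT range. The log2 fold change was 0.07 with a 95% confidence interval of -0.17 to 0.31 (edgeR adjusted p = 0.688, exact permutation p = 0.571), and without DKO 2 it was -0.0061.

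Pseudogenes of the chaperone genes held few counts. The annotation lists 4 pseudogenes of Hspd1, 6 of Hspe1 and 1 of Hspa9. Their highest counts in a library were 170, 15 and 2. Summed, they reached at most 0.308% of the Hspd1 count, 0.0530% of that of Hspe1 and 0.0069% of that of Hspa9. The parent genes could still hold or have lost reads that align to both. Hspd1 and Hspe1 also overlap by 112 bases on opposite strands, and whether reads were counted by strand is not given in the sources used here.

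Of the matrix proteases, Lonp1 and Clpp were called higher in DKO. Lonp1 (ENSMUSG00000041168.9, chr17:56614297-56626887, minus strand) encodes the ATP-driven LON protease, which degrades oxidized and misfolded matrix proteins. Its normalized counts were 3011, 3146, 3692 and 3291 in WT 1 to 4, and 4875, 5497, 4571 and 8963 in DKO 1 to 4. The genotypes did not overlap, and DKO 4 stood far above the other DKO libraries. The means were 3285 ± 295 and 5977 ± 2028 (SD, n = 4 each), or 1.82-fold higher in DKO (edgeR log2 fold change 0.86 ± 0.20 SE, adjusted p = 0.0159, exact permutation p = 0.0286). Without DKO 4 the log2 fold change was 0.60 (edgeR adjusted p = 0.0121). The call was lost without WT 1 (log2 fold change 0.82, edgeR adjusted p = 0.0575), WT 2 (0.85, 0.0502) or WT 4 (0.86, 0.0520), with the fold about as large. The call was also lost with sex as a covariate, where the fold was smaller (log2 fold change 0.48, edgeR adjusted p = 0.335).

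Clpp (ENSMUSG00000002660.7, chr17:56990305-56996188, plus strand) encodes the peptidase chamber of the CLPXP protease. Normalized counts were 5526, 5613, 6628 and 5612 in WT 1 to 4, and 6499, 7360, 8431 and 8171 in DKO 1 to 4. The DKO libraries were above the WT libraries except that DKO 1 was below WT 3. The means were 5845 ± 524 and 7615 ± 873 (SD, n = 4 each), with a log2 fold change of 0.38 ± 0.10 (SE, edgeR adjusted p = 0.0283, exact permutation p = 0.0571). Clpp has a short transcript, with 1223 bases of exons, and the protein-coding genes were divided by exon length into 5 groups of like size, of which the shortest (204 to 2415 bases) had a median of 0.15 on the log2 scale and the others of -0.10 to -0.02. After correction of each library for exon length and GC content the log2 fold change of Clpp was 0.08 (edgeR adjusted p = 0.510). The call was also lost, with the fold about as large or larger, without a filter on low counts (log2 fold change 0.36, edgeR adjusted p = 0.0552), with sex as a covariate (0.53, 0.0716), and without DKO 3, DKO 4, WT 1, WT 2 or WT 4 (0.33 to 0.37, adjusted p 0.0552 to 0.0913).

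Clpx, which encodes the unfoldase that feeds CLPP, was at 2797 ± 240 normalized counts in WT against 2743 ± 184 in DKO (SD over 4 libraries each), with a log2 fold change of -0.03 (95% confidence interval -0.23 to 0.18, edgeR adjusted p = 0.858). The ratio of Clpp to Clpx within a library was 1.90, 2.29, 2.35 and 1.87 in WT 1 to 4, and 2.30, 2.98, 3.003 and 2.85 in DKO 1 to 4. DKO 2, DKO 3 and DKO 4 were above every WT library and DKO 1 was within the WT range. The difference of the log2 ratio was 0.41 (exact permutation p = 0.0571, and the same after adjustment over 3 ratios). With the correction for length and GC content it was -0.013 (exact permutation p = 0.886).

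Yme1l1 (ENSMUSG00000026775.9, chr2:23156369-23199260, plus strand), the protease of the inner membrane that faces the intermembrane space, had 6833, 5767, 5517 and 6719 normalized counts in WT 1 to 4, and 5593, 5140, 5489 and 5608 in DKO 1 to 4. All 4 DKO libraries were below the WT mean but overlapped the lower WT libraries. The log2 fold change was -0.19 (95% confidence interval -0.39 to 0.01, edgeR adjusted p = 0.165, exact permutation p = 0.0857). It was the only gene of the 10 that varied less among DKO libraries (coefficient of variation 3.996%) than among WT libraries (10.7%).

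Oma1 fell. Oma1 (ENSMUSG00000035069.3, chr4:103313812-103371868, plus strand) encodes the stress-activated protease that starts the relay. Its normalized counts were 2111, 1850, 1730 and 1979 in WT 1 to 4, and 1125, 1286, 1530 and 1139 in DKO 1 to 4. The highest DKO library, DKO 3, was below the lowest WT library, WT 3. The means were 1918 ± 164 and 1270 ± 188 (SD, n = 4 each), so that Oma1 was 1.51-fold lower in DKO (edgeR log2 fold change -0.59 ± 0.12 SE, adjusted p = 0.0113, exact permutation p = 0.0286). Oma1 stayed called when any single library was left out (log2 fold change -0.69 to -0.54, edgeR adjusted p 0.00598 to 0.0413) and with the correction for length and GC content (-0.61, edgeR adjusted p = 0.00775). With sex as a covariate it was not called (log2 fold change -0.33, edgeR adjusted p = 0.264).

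OMA1 and YME1L1 cut OPA1 at different sites, and the balance of their transcripts shifted. The ratio of Oma1 to Yme1l1 counts was 0.309, 0.321, 0.314 and 0.295 in WT 1 to 4, and 0.201, 0.250, 0.279 and 0.203 in DKO 1 to 4. The WT libraries were close to each other, and every DKO library was below them. DKO 3, the DKO library that shared their sex, was the nearest to them at 0.279. The difference of the log2 ratio was -0.42 (exact permutation p = 0.0286, 0.0429 after adjustment over 3 ratios), and -0.58 with the correction for length and GC content (exact permutation p = 0.0286). Opa1 itself was lower, with 3534 ± 323 normalized counts in WT against 2810 ± 230 in DKO (SD over 4 libraries each, log2 fold change -0.33, edgeR adjusted p = 0.0366). The genotypes overlapped, with DKO 4 above WT 3 (exact permutation p = 0.0571). Opa1 was not called with the correction for length and GC content. Nor was it called when DKO 1, DKO 2, DKO 3, WT 1, WT 2 or WT 4 was left out.

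**Figure D4:**
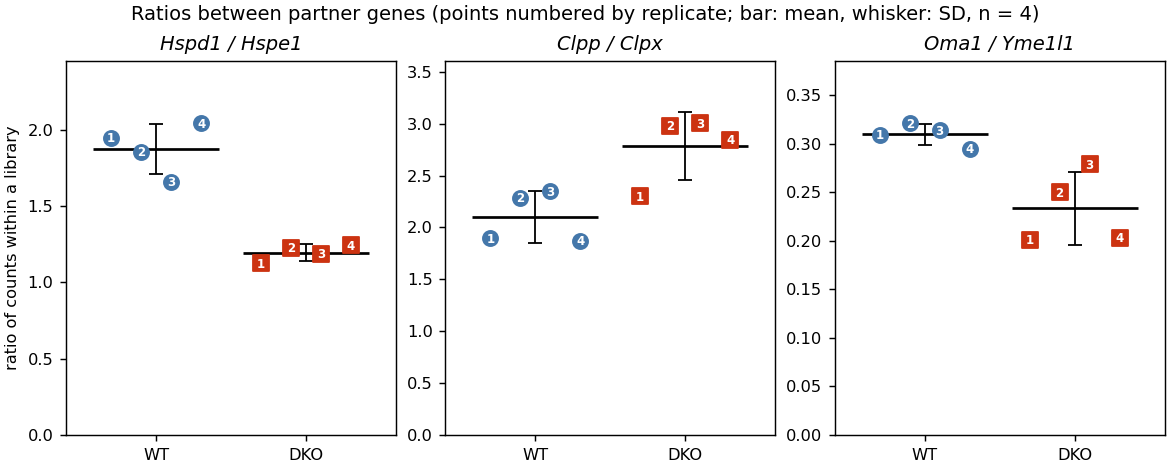
Ratios of counts within each library (vertical axes, all from 0) for 3 pairs of partner genes in WT and DKO, numbered by replicate, with the mean and SD (n = 4). Hspd1 to Hspe1 lies at 1.66 to 2.04 in WT and 1.12 to 1.24 in DKO, Oma1 to Yme1l1 is lower in every DKO library, and Clpp to Clpx overlaps in DKO 1.

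Dele1, the middle step of the relay, was lower in mean but was not called. DELE1 is the substrate of OMA1 that carries the signal to HRI. The gene (ENSMUSG00000024442.5) lies on chromosome 18 from 38250255 to 38265461, plus strand. Normalized counts were 4166, 3762, 3871 and 4362 in WT 1 to 4, and 3191, 3614, 3418 and 3797 in DKO 1 to 4. DKO 4 lay just above WT 2, and the other 3 DKO libraries were below every WT library. The log2 fold change was -0.20 (95% confidence interval -0.40 to -0.01, edgeR adjusted p = 0.116, exact permutation p = 0.0571). The gene overlaps the antisense transcript 1700086O06Rik by 311 bases, which was at 333 normalized counts in WT and in DKO on average.

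Eif2ak1 (ENSMUSG00000029613.15, chr5:143817788-143904251, plus strand) encodes HRI, the kinase at the end of the relay, and it fell. Normalized counts were 6365, 5320, 5815 and 5984 in WT 1 to 4, and 3785, 3961, 4832 and 4462 in DKO 1 to 4. The genotypes did not overlap, and the DKO libraries were the lower. The means were 5871 ± 433 and 4260 ± 477 (SD, n = 4 each), so that Eif2ak1 was 1.38-fold lower in DKO (edgeR log2 fold change -0.46 ± 0.10 SE, adjusted p = 0.0121, exact permutation p = 0.0286). It stayed called when any single library was left out (log2 fold change -0.52 to -0.41, edgeR adjusted p 0.00827 to 0.0410) and with the correction for length and GC content (-0.32, edgeR adjusted p = 0.0416). With sex as a covariate it was not called (log2 fold change -0.28, edgeR adjusted p = 0.264). Eif2ak1 overlaps Aimp2 by 1548 bases on the other strand, and Aimp2 was at 4975 normalized counts in WT and 4805 in DKO on average.

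Gdf15 (ENSMUSG00000038508.7, chr8:70629393-70632456, minus strand) encodes the mitokine, a circulating factor of the TGF-β superfamily. Normalized counts were 333.0, 270.2, 318.8 and 378.5 in WT 1 to 4, and 484.4, 1331, 328.4 and 750.2 in DKO 1 to 4. DKO 1, DKO 2 and DKO 4 were above every WT library, and DKO 3 lay within the WT range. The means were 325 ± 44.6 and 723 ± 441 (SD, n = 4 each), the largest fold of the 10 genes at 2.22 and the widest spread, with a coefficient of variation of 60.9% among DKO libraries and 13.7% among WT libraries. The log2 fold change was 1.15 ± 0.38 (SE, 95% confidence interval 0.30 to 2.01) and did not pass the edgeR test (adjusted p = 0.0580, exact permutation p = 0.0857). DESeq2 called it (adjusted p = 0.0135). The estimate was 0.68 without DKO 2 (edgeR adjusted p = 0.132), 1.40 without DKO 3 (0.0170) and 1.31 without DKO 1 (0.0381). DKO 3 was the DKO library with Y-linked transcripts, and with sex as a covariate the log2 fold change was 0.01 (edgeR adjusted p = 0.989).

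DKO 3 shared the sex of the 4 WT libraries, so its values can be read against theirs without that difference. Its levels of Lonp1 (4571), Clpp (8431) and Hspe1 (44704) were above every WT library, and those of Oma1 (1530), Eif2ak1 (4832), Dele1 (3418) and Hspd1 (53042) were below every WT library. Hspa9 (27499) lay just above and Yme1l1 (5489) just below the WT range, and Gdf15 (328.4) inside it. A single library gives no estimate of the spread. The share of all genes tested for which DKO 3 lay outside the WT range was not counted, so these places cannot be set beside it. DKO 1, which had the highest mesenchyme and neural sums, was the lowest DKO library for Hspd1, Hspe1, Hspa9, Clpp, Oma1, Dele1 and Eif2ak1. When it was left out, 4 of the 10 genes were called higher and 2 lower, with Lonp1, Clpp, Oma1 and Eif2ak1 still among them. DKO 2, DKO 3 and DKO 4 also had mesenchyme and neural sums above every WT library. The part of those cells in the calls was not tested.

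Levels were compared between genes per kilobase of exon (RPKM from the counts and the annotated exon lengths). The length is that of all annotated exons of a gene together, so the order depends on the annotation. In WT the order ran from Hspd1 (525 ± 22.1 RPKM) and Hspe1 (504 ± 39.7), which overlapped, through Hspa9 (139) and Clpp (109) to Eif2ak1 (23.6), Oma1 (20.4), Yme1l1 (17.7) and Lonp1 (17.1), and then to Dele1 (12.46) and Gdf15 (3.998). Neighbours among Eif2ak1, Oma1, Yme1l1 and Lonp1 overlapped between WT libraries. In DKO Hspe1 (637 ± 93.8 RPKM) stood before Hspd1 (426 ± 74.1), Lonp1 (31.1) moved up to follow Clpp, and Oma1 (13.5) moved behind Yme1l1 (15.5). The chaperones and Clpp were thus the most abundant transcripts in both genotypes, and the relay genes were expressed at far lower levels (SD over n = 4 libraries per genotype).

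The genes whose profile over the 8 libraries was nearest to each called gene were sought among 14052 protein-coding genes, by the root mean square difference of log2 levels centred on the WT mean. For Lonp1 they were Higd1a (0.0799), Mr1 (0.113) and Fam162a (0.146). Higd1a and Fam162a, which encode mitochondrial proteins known from the response to low oxygen, rose (log2 fold changes 0.84 and 0.69, edgeR adjusted p = 0.0136 and 0.0135), while Mr1, an MHC class I-like gene, was at 0.86 (edgeR adjusted p = 0.121). For Clpp they were Chchd2 (0.0449), Ndufb9 (0.0449) and Ndufb7 (0.0475). All of these encode small mitochondrial proteins, and the Ndufb genes encode complex I subunits. For Oma1 they were Sf3a1 (0.0440), a splicing factor, Msh6 (0.0510), a mismatch repair gene, and Rfwd3 (0.0559), a ubiquitin ligase gene. For Eif2ak1 they were Cxxc1 (0.0427), Parn (0.0646) and Arrdc1 (0.0648). These differences are descriptions over 8 libraries that also set the genotype difference.

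The other genes of the pathway were read from 7 lists, of which 96 of 97 genes were tested. Of these, 23 rose and 8 fell, or 32.3% in all, beside 21.6% of all genes tested. With sex as a covariate edgeR called 7 of the 96 higher and 0 lower, beside 6.3% of all genes tested called in either direction. In that fit 28 of the 96 had an unadjusted p under 0.05, and the share of all genes at that p was not counted. ATF4, ATF5, CHOP and their targets supplied 15 of the 23. In that list 15 of 20 tested genes rose and 0 fell by edgeR, with 0 lower also at an unadjusted p under 0.05 and by DESeq2, and the median log2 fold change was 1.33 (Fgf21 was not tested). The 4 with the smallest p were Pck2 (log2 fold change 1.52), the mitochondrial PEP carboxykinase, Trib3 (4.95), a pseudokinase that binds ATF4, Slc7a11 (4.08), the cystine transporter, and Nupr1 (3.89), a stress-induced chromatin protein, with edgeR adjusted p from 0.000575 to 0.00210. The count of higher genes in this list was between 13 and 17 under the alternatives tried, except that it was 6 with sex as a covariate.

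Among the kinases, phosphatases and subunits of eIF2, 2 of 13 genes rose and 1 fell, near the 21.6% of all genes that were called, with a median log2 fold change of 0.04. Ppp1r15a, which encodes GADD34, the inducible subunit of the eIF2α phosphatase, rose (1.19, edgeR adjusted p = 0.0253), as did Eif2s2, the eIF2β subunit (0.42, 0.0248). Neither was called when WT 1, WT 2 or WT 4 was left out. Ppp1r15b, the constitutive counterpart of GADD34, fell (-0.34, edgeR adjusted p = 0.0283), but was not called when WT 1, WT 2 or DKO 4 was left out. The other eIF2 kinase genes were not called. Eif2ak2, which encodes the kinase PKR activated by double-stranded RNA, stood at 0.52 on the log2 scale (edgeR adjusted p = 0.115), Eif2ak3 (PERK) at 0.04 (0.911) and Eif2ak4 (GCN2) at -0.15 (0.364).

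The next lists also had called genes at about that share. The other mitochondrial chaperones and import motor genes had 2 of 11 higher and 1 lower, with a median log2 fold change of 0.11. Pam16 (0.44, edgeR adjusted p = 0.0168) and Dnajc19 (0.32, 0.0348), both J-like parts of the import motor, rose, and Trap1, the mitochondrial HSP90, fell (-0.42, 0.0209). Of the other mitochondrial proteases, 1 of 17 rose and 2 fell, with a median of -0.04. Spg7, a subunit of the matrix-facing AAA protease, rose (0.44, edgeR adjusted p = 0.0448), and the peptidases Pitrm1 (-0.59, 0.00680) and Xpnpep3 (-0.47, 0.0167) fell. Of the scaffolds and substrates of the inner membrane proteases, 1 of 9 rose and 1 fell, with a median of 0.08. Romo1, a small inner membrane protein, rose (0.44, edgeR adjusted p = 0.0136), and Opa1 fell, with the limits given above.

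As lists for comparison, other nuclear genes of mitochondria had 2 of 18 higher and 3 lower, with a median of -0.02 on the log2 scale, and CCT had 0 of 8 called by edgeR or DESeq2 (0 at an unadjusted p under 0.05 by edgeR), with a median of -0.07. In the former, Slc25a4 (0.26, edgeR adjusted p = 0.0250) and Etfb (0.33, 0.0388) rose, and among those that fell were the tricarboxylic acid cycle gene Fh1 (-0.45, 0.00870) and the outer membrane channel Vdac1 (-0.37, 0.0121). Outside the ATF4 list and CCT, each list thus held called genes in both directions, at a share near the 21.6% of all genes tested.

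**Figure D5:**
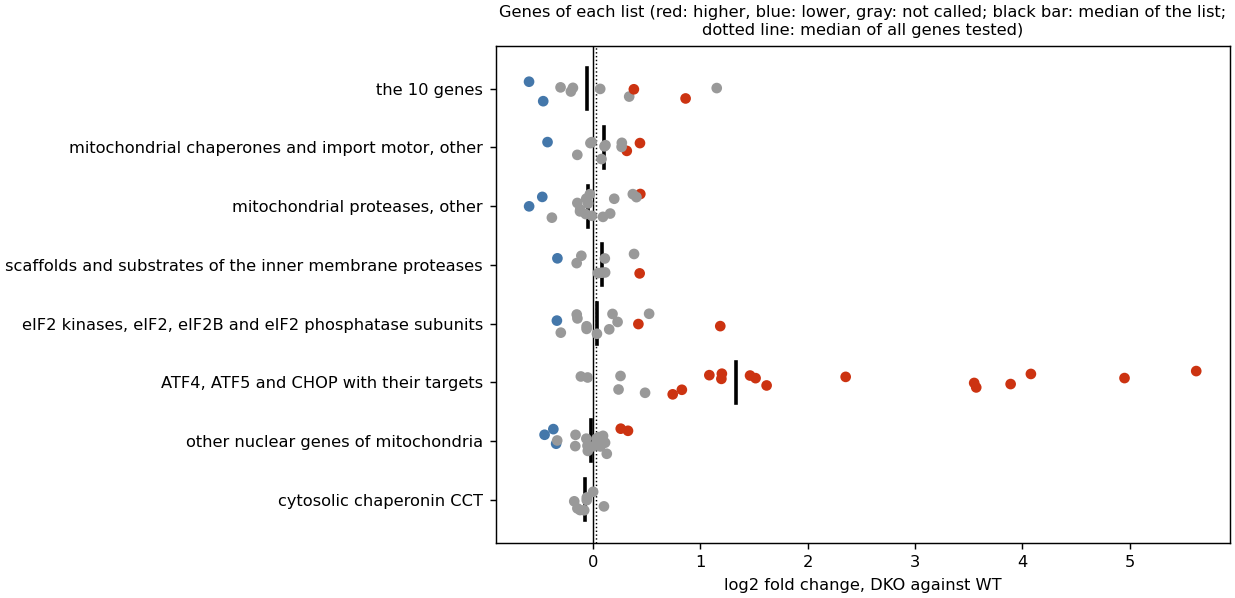
The log2 fold change of DKO against WT (horizontal axis) for the 10 genes and for each tested gene of 7 lists, coloured by the edgeR call, with the median of each list (black bar) and of all genes tested (dotted line). The ATF4, ATF5 and CHOP list has a median of 1.33, and the medians of the other lists lie between -0.07 and 0.11.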

How the data were processed

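RNAseq of 4 WT and 4 DKO libraries was analysed, with groups and replicate numbers from the labels. The authors deposited whole-number counts per gene, not normalized and not pooled. Per the labels, reads were processed with fastp 0.21.0, HISAT2 2.2.1 (mm10) and StringTie 1.3.3b, whose prepDE script derives counts from coverage. Of the 52636 identifiers, 52489 matched GENCODE vM21 (GRCm38) without the version. There were 0 other columns of per-sample values.

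Counts were filtered with filterByExpr, scaled by TMM and compared with edgeR 4.0.16 (robust quasi-likelihood test, R 4.3.3, limma 3.58.1) without covariates, with Benjamini-Hochberg adjustment over 17378 genes. Exact two-sided permutation tests over 70 arrangements used log2 normalized counts with a pseudocount of 1, and log2 ratios with none. DESeq2 1.42.0, other scalings and filters (at least 10 counts in every library), protein-coding genes only, a fold threshold, a replicate block, a sex covariate and leaving out each library were alternatives. A loess correction for exon length and GC content (span 0.5) and the ratios to CCT were added after the data were seen. Libraries of a genotype differed by more than counting error (chi-square per gene at least 18.3). The fitting steps were tested on simulated data.

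The text names all 10 genes, Vps13a and Vps13c, from each list up to 4 called genes per direction by smallest p, the genes of the ratios, and the 3 genes nearest in profile to each called gene. Eif2ak2, Eif2ak3, Eif2ak4, Epor, Mpo, Csf1r, S100a8 and the markers at 0 were named after their values were seen. A few genes of the lists are counted but not reported by name here. The genes and lists were chosen with earlier results of these data known, among them the rise of ATF4 targets.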

Additional observations from a re-analysis of the deposited data

Results flagged for a closer look

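The Clpp level of WT 3, at 6628 normalized counts, stood apart from the other WT libraries (5526 to 5613), with a gap to its nearest neighbour of 0.921 of the whole range of the group, above Dixon's 95% critical value for 4 samples. It was the only such value in the 26 groups of 4 examined, and chance flags about 1 in 20 groups. WT 3 is also the library that overlaps with DKO 1 (6499) for Clpp. Without WT 3 the log2 fold change of Clpp was 0.44 (edgeR adjusted p = 0.0252).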

How the results depend on the processing

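Of the 10 genes, 2 were called higher and 2 lower. The count called higher was 4 with DESeq2, with at least 10 counts in every library, with protein-coding genes only and with upper-quartile scaling. It was 1 with no filter on low counts and with the length and GC correction, and 0 with sex as a covariate and with a log2 fold change beyond 1. When a library was left out it ranged from 0 (without WT 1, WT 2 or WT 4) to 4 (without DKO 1), and it was 1 without DKO 4. The count called lower was 0 with sex as a covariate and with a log2 fold change beyond 1, 3 with library sizes without TMM (with Hspd1 added), and 2 in the other alternatives. Of the other genes of the pathway, 23 were called higher. That count was 7 with sex as a covariate, 14 with a log2 fold change beyond 1, and 13 (without WT 1) to 28 (without DKO 1) when a library was left out, with 14 without WT 4. Called lower were 8, and 4 with the length and GC correction, 5 with upper-quartile scaling, 0 with sex as a covariate or a log2 fold change beyond 1, and 3 (without WT 1 or WT 2) to 8 when a library was left out, with 4 without WT 4. The cause of these changes was not tested. Direction turned for Hspa9 without DKO 2 (log2 fold change -0.0061, and -0.0061 to 0.16 over the libraries left out) and for the log2 ratio of Clpp to Clpx with the length and GC correction (-0.013). Upper-quartile scaling moved the median log2 fold change of all genes by 0.11.

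Same-numbered WT and DKO libraries did not deviate together (correlations -0.102 to 0.0535, beside -0.115 to 0.124 for different numbers). A shared litter or sort cannot be told from these values, and the main test did not pair the samples. With a replicate block the counts were 2 higher and 2 lower among the 10 genes, and 16 higher and 2 lower among the other genes of the pathway.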
